A study of Mus musculus with 4 samples.

Results

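Tetraspanins are small proteins that cross the membrane several times and gather integrins, proteases and immune receptors into patches of the cell surface. They have no enzyme activity of their own. Several of them, CD9, CD63 and CD81 above all, are used as surface labels of extracellular vesicles, and CD9 has served as a surface marker of lipid-handling macrophages in several tissues. The family was taken here as the genes whose array symbol is Tspan followed by digits, with Cd9, Cd37, Cd53, Cd63, Cd81, Cd82 and Cd151. This gave 26 genes of 19505 with a symbol on the array, each measured by 1 probe set.

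The series holds 4 libraries from macrophages of C57BL/6N mice, 15 to 16 weeks old, labelled wild type in the growth protocol, after transverse aortic constriction (TAC), surgery that narrows the aorta so that the heart pumps against raised pressure. Cells from 6 mixed hearts were sorted into 4 populations, and each population gave 1 Clariom S array. The libraries are called Ccrl2, CD74, CD163 and Trem2 by their titles. All of them came from operated hearts, and no unoperated heart was compared. CD9 stands in the source name of the CD74 library, so the Cd9 transcript was set beside that label. The array measures RNA, and the CD9 protein was not measured. Where 1 title says CD163 the growth protocol says Lyve1, and it dates the sort 1 week after surgery while the source names say 8 weeks.

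Levels are the deposited log2 values, so that 1 unit is a 2-fold difference. As background, 1497 chemosensory receptor and keratin-associated protein genes were taken, and their 95th percentile in a library, its background ceiling, was 5.67 (Ccrl2), 6.53 (CD74), 6.28 (CD163) and 5.50 (Trem2). A gene was counted as higher or lower when the brighter value lay above its own ceiling and the difference was at least 1 log2 unit. Where the dimmer value lay under its ceiling, a fold is given as "at least", from that ceiling. With 1 array for each population there was no spread between replicates and no test, so that every difference below separates 4 arrays and has no replicate check. The columns also differ as a whole. The median difference between Ccrl2 and CD74 over the 7902 genes measured in either was 0.96 log2 units, and after quantile normalization, which gives all columns the same distribution, it was 0.36.

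The CD74 array stood apart from the others in its marker genes. Of 7 macrophage markers, 5 were above the ceiling in CD74 and 7 in each other library, and their mean level was 7.42 in CD74 against 14.84 in Ccrl2, 13.93 in CD163 and 14.28 in Trem2. Csf1r, which encodes the M-CSF receptor of macrophages, had 9.40 in CD74 and at least 18.60 elsewhere, C1qb had 8.12 against at least 16.94, and C1qa 7.97 against at least 17.13. Fcgr1 and Mertk were under the ceiling in CD74. All 8 T and NK cell markers were above the ceiling in CD74, with 0 in Ccrl2, 1 in CD163 and 5 in Trem2, and their mean level was 9.42, 4.89, 5.29 and 6.68 in the same order. Gzma had 13.01 in CD74, Il2rb 11.91 and Nkg7 9.75. Of the 8, 7 were at least 2-fold higher in CD74 than in each other library (4.41% of all genes were). The other, Cd2, was higher in Trem2 (7.55) than in CD74 (6.95). Fibroblast markers were above the ceiling in 5 of 5 cases in Ccrl2 and Trem2 and 2 in CD74 and CD163 (Dcn had 12.65 in Ccrl2 and 12.67 in Trem2), and cardiomyocyte markers in 5 of 5 in each library but CD74, with 2 (Actc1 had 9.69 there and at most 10.47 elsewhere). Whether a tetraspanin differs because the cells differ in type or in RNA per cell cannot be told apart in these bulk samples.

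Of the 26 tetraspanins, 18 were above the background ceiling in at least 1 library, beside 9362 of all 19505 genes. Above it in all 4 libraries were 7 of them, Cd9, Cd37, Cd53, Cd81, Cd82, Tspan13 and Tspan31. Cd63, Cd151, Tspan3 and Tspan14 were above it in 3 libraries, each time without CD74. Tspan4 and Tspan9 and Tspan12 were above it in Ccrl2 and Trem2. Tspan17 passed in Ccrl2 alone, Tspan32 in CD163 alone, and Tspan2 and Tspan5 in Trem2 alone. The other 8, Tspan1, Tspan6, Tspan8, Tspan10, Tspan11, Tspan15, Tspan18 and Tspan33, stayed under every ceiling, with values from 3.63 to 5.47. By library, 15 of 26 members passed in Ccrl2 (57.7%, beside 38.2% of all genes), 7 in CD74 (26.9%, beside 18.6%), 12 in CD163 (46.2%, beside 25.6%) and 16 in Trem2 (61.5%, beside 41.9%).

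**Figure D1:**
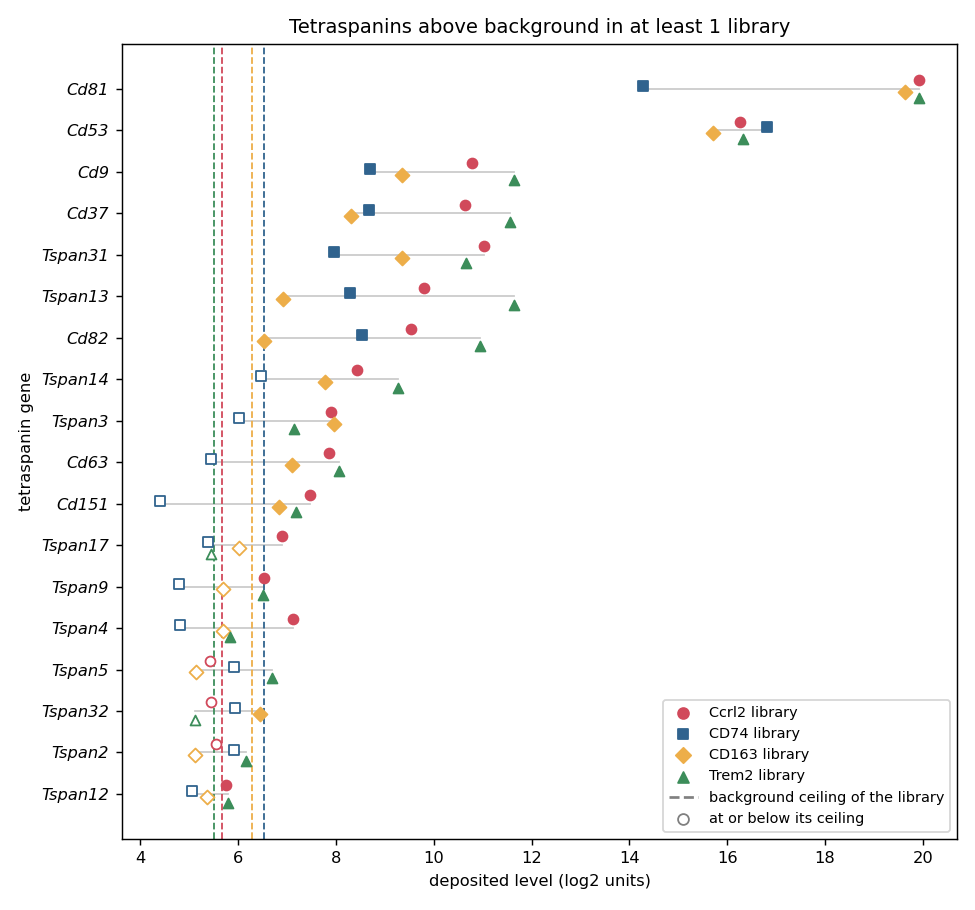
Deposited log2 level (horizontal axis) of the 18 tetraspanin genes above background in at least 1 library, with 1 point for each library, filled where the value lies above that library's background ceiling (dashed line of the same colour) and open where it does not. CD74 holds the lowest point for 11 of the 18 genes, while Cd53 is highest in CD74 at 16.82.

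Cd9, the gene behind the source name of the CD74 library, had 10.79 (Ccrl2), 8.69 (CD74), 9.35 (CD163) and 11.65 (Trem2). All 4 values lay well above background, and the library whose source name carries CD9 had the lowest of them. The Trem2 value was 7.78-fold above CD74, 4.92-fold above CD163 and 1.82-fold above Ccrl2. As ranks the differences were small, but ranks near the top leave little room. Cd81, at least 50.2-fold higher in Ccrl2 than in CD74, had the percentiles 99.9 and 99.5 there. Among all genes of its library, Cd9 stood at the percentile 96.3 in both Ccrl2 and CD74, with 96.0 for CD163 and 97.2 for Trem2. After quantile normalization it had 10.01, 9.91, 9.78 and 10.69, so that no pair of libraries was 2-fold apart any more. The Cd9 transcript therefore did not single out the CD74 library on either scale.

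Cd81, which associates with integrins on many cells, had 19.93 (Ccrl2), 14.28 (CD74), 19.64 (CD163) and 19.93 (Trem2). The value 19.93 is the top of the deposited scale, so Ccrl2 and Trem2 were saturated and have no order between them. CD74 was at least 50.2-fold below both and 41.1-fold below CD163. After quantile normalization CD74 was still the lowest, at 15.93 against 19.38 in CD163 and more in the others. Values near the top of the scale are coarse, which touches the difference between CD163 and the saturated libraries.

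Cd53, a pan-leukocyte tetraspanin, went the other way. It had 16.27 (Ccrl2), 16.82 (CD74), 15.70 (CD163) and 16.33 (Trem2), so that CD74 was the highest, 1.46-fold over Ccrl2, 1.4-fold over Trem2 and 2.17-fold over CD163. Over the genes measured in a pair the CD74 array lay lower than Ccrl2 and Trem2 (median differences of 0.96 for Ccrl2 minus CD74 and -1.01 for CD74 minus Trem2), and after quantile normalization Cd53 had 15.38, 18.42, 15.87 and 15.34. On that scale CD74 was 3.09 log2 units above Trem2, the lowest. The scaling raised other bright CD74 values too, such as Cd81 from 14.28 to 15.93. Over all genes, the share at least 2-fold higher in CD74 than in each other library went from 4.41% to 10.7%. Among the 18 members that count went from 0 to 1. Cd53 was the only member of the 18 with its highest value in CD74 on either scale. T and NK cell markers were high in the same library, and their part in this value was not tested.

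The proximal promoters of these genes are shown because Cd81 and Cd53 had opposite positions in the CD74 library and Cd9 is the gene of its source name. They were chosen after the values were seen. Each sequence is the 250 bases before the transcription start, 5′ to 3′ on the gene's strand, from the RefSeq table on GRCm38.p6. Capitals mark, on either strand, the motifs GGGCGG (the GC box of Sp1-type factors) and GAGGAA (a purine-rich motif of some ETS-type factors). Cd9 lies at chr6:125494761-125495010 on the minus strand, Cd81 at chr7:143052500-143052749 on the plus strand and Cd53 at chr3:106790150-106790399 on the minus strand.
Cd9: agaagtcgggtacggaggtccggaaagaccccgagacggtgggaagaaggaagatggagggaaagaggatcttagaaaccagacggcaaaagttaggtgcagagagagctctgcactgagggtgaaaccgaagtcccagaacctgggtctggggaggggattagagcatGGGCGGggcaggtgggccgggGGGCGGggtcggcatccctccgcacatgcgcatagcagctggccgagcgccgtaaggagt
Cd81: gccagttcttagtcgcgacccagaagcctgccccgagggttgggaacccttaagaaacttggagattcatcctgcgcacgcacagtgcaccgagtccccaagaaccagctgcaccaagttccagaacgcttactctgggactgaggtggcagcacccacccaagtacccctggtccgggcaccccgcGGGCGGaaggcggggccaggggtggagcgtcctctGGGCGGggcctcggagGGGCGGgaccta
Cd53: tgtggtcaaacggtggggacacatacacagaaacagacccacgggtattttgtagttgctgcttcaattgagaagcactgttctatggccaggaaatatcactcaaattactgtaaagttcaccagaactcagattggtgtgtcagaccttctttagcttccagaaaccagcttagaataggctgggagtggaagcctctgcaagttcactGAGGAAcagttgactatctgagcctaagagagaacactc
The Cd9 window holds 2 GC boxes, the Cd81 window 3 and the Cd53 window 0, and the Cd53 window holds 1 GAGGAA where the others hold 0. The shorter GGAA inside that motif also occurs in the Cd9 and Cd81 windows. Their GC content was 61.6%, 65.6% and 45.2%, beside a median of 52.4% over 32851 promoter windows of the same length, and they held 16, 16 and 2 CpG pairs. Other members lowest in CD74 as deposited were mixed. The Cd63 and Tspan31 windows each held 0 GC boxes and 2 GAGGAA, with a GC content of 48.8% and 46.0%. Cd151 and Tspan4 each held 2 GC boxes and 0 GAGGAA in 1 of their 2 windows. A link between these letters and the levels was not tested.

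Over the family, 25 of the 26 genes had an entry in the promoter table, with 35 windows because some genes have several starts. GGGCGG was found in 15 of the 35 windows (42.9%), from 13 genes, beside 32.7% of all windows. GAGGAA was found in 10 (28.6%), from 9 genes, beside 23.3%. The E-box CACGTG was found in 2 (5.71%), upstream of Cd37 and Tspan4, beside 6.02%, and TATAAA in 1 (2.86%), upstream of Tspan12, beside 12.4%. Windows of the same gene share its locus, and a match describes letters, with nothing measured on binding.

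The vesicle tetraspanin Cd63, which also marks late endosomes and lysosomes, had 7.85 (Ccrl2), 5.44 (CD74), 7.10 (CD163) and 8.07 (Trem2). The CD74 value was under the ceiling, so Trem2 was at least 2.91-fold and Ccrl2 at least 2.50-fold above it, while the other 3 libraries lay within 2-fold of each other. Cd151, a partner of laminin-binding integrins, had 7.46, 4.40, 6.83 and 7.19 in the same order. It was again under the ceiling in CD74 alone, and Ccrl2 was at least 1.91-fold above it. Both genes kept this pattern after quantile normalization, with 5.38 in CD74 against at least 7.42 for Cd63 and 4.28 against at least 6.81 for Cd151.

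Tspan3 had 7.90 (Ccrl2), 6.02 (CD74), 7.95 (CD163) and 7.15 (Trem2). It was, with Tspan32, one of 2 members above background with the highest deposited value in CD163, for Tspan3 by 0.05 log2 units over Ccrl2. The CD163 value of Tspan3 was at least 2.68-fold above CD74 and 1.74-fold above Trem2. Tspan31 had 11.03, 7.95, 9.34 and 10.66, with Ccrl2 8.46-fold above CD74, 3.23-fold above CD163 and 1.29-fold above Trem2. Quantile normalization brought Tspan31 to 10.25, 8.95, 9.77 and 9.80, where only Ccrl2 and CD74 remained 2-fold apart.

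Cd37, Cd82 and Tspan13 shared an order in which Trem2 was the highest and CD163 the lowest. Cd37, a leukocyte tetraspanin best known from B cells, had 10.64 (Ccrl2), 8.68 (CD74), 8.30 (CD163) and 11.55 (Trem2), a 9.51-fold range. Cd82, which restrains cell migration, had 9.53, 8.53, 6.52 and 10.95 in the same order, and Trem2 was 21.6-fold above CD163. Tspan13 had 9.80, 8.29, 6.91 and 11.64, and its 26.5-fold difference between Trem2 and CD163 was the largest of any member with both values above background and below saturation, apart from the 41.1-fold of Cd81 between CD163 and CD74. After quantile normalization the CD74 values of these genes moved up, to 9.90, 9.71 and 9.39, and CD163 was still the lowest and Trem2 the highest for each.

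As deposited, B cell marker genes had the same end points. All 5 B cell markers measured were above the ceiling in Trem2 and in CD74, 4 in Ccrl2 and 1 in CD163, and their mean level was 9.11 in Trem2, 7.5 in CD74, 7.14 in Ccrl2 and 5.0 in CD163. Cd79a had 11.80, 10.70, 9.66 and 6.31 in that order, Cd79b 10.26, 6.65, 6.65 and 5.30, and Pax5 8.17, 6.84, 6.88 and 4.09. After quantile normalization CD163 was still the lowest for all 5, but Cd79a and Ms4a1 were highest in CD74, at 11.99 and 7.05 against 10.84 and 6.93 in Trem2. Neutrophil markers were also highest in Trem2, with 6 of 6 above the ceiling there and 0 in CD163, and Retnlg had 16.81, Lcn2 13.23 and S100a9 12.55 in Trem2. The part of either marker group in the values of Cd37, Cd82 and Tspan13 was not tested.

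**Figure D2:**
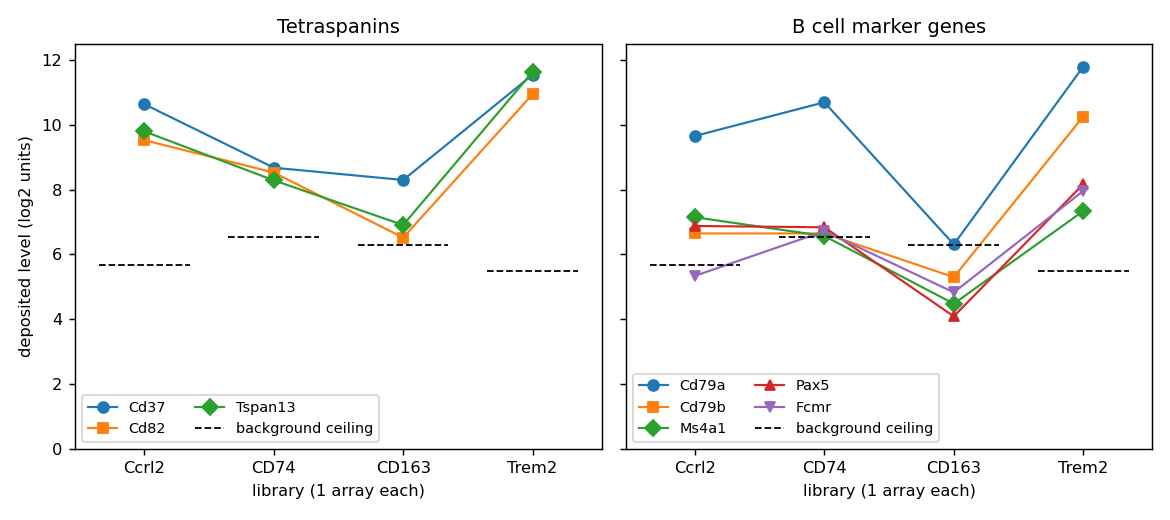
Deposited log2 level (vertical axis) in the 4 libraries (horizontal axis, 1 array each) of Cd37, Cd82 and Tspan13 on the left and of 5 B cell marker genes on the right, with each library's background ceiling as a dashed bar and lines that only join the points of a gene. Every gene in both panels is highest in Trem2 as deposited (after quantile normalization Cd79a and Ms4a1 are highest in CD74) and lowest in CD163, where the bars show all B cell markers but Cd79a under the ceiling.

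The TspanC8 subgroup, Tspan5, Tspan10, Tspan14, Tspan15, Tspan17 and Tspan33, escorts the protease ADAM10 to the cell surface. Of these 6 genes, 3 were above background in at least 1 library, beside 9362 of all 19505 genes. Tspan14 had 8.42 (Ccrl2), 6.47 (CD74), 7.77 (CD163) and 9.27 (Trem2), the CD74 value under the ceiling, and Trem2 was 2.83-fold above CD163 and at least 6.68-fold above CD74. Tspan17 had 6.89 in Ccrl2 and was under the ceiling elsewhere, so that Ccrl2 was at least 2.62-fold above Trem2. Tspan5 had 6.70 in Trem2 and was under the ceiling elsewhere, with Trem2 at least 2.04-fold above Ccrl2. After quantile normalization the Tspan5 difference, Ccrl2 minus Trem2, was -0.96 log2 units, short of 2-fold. The dimmer values lay near background, with Tspan17 at 5.45 in Trem2 under a ceiling of 5.50 and Tspan5 at 5.43 in Ccrl2 under 5.67. Both members had passed background only through the library where they were high.

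Adam10 itself had 10.58 (Ccrl2), 6.68 (CD74), 9.27 (CD163) and 10.07 (Trem2), and stayed lowest in CD74 after quantile normalization at 7.22 against at least 9.23. Of 12 ADAM10 substrates, 10 were above background in at least 1 library, beside 9362 of all 19505 genes. Compared between Ccrl2 and CD74, 6 of 8 measured were at least 2-fold higher in Ccrl2 (48.8% of all genes were) and 0 lower (9.01%), with a median of 3.42 log2 units beside 0.96 over all genes. After quantile normalization the median was 2.09 beside 0.36. Cxcl16, a chemokine that is shed from the membrane, had 16.57 (Ccrl2), 7.76 (CD74), 11.78 (CD163) and 14.76 (Trem2). Axl, a receptor for dying cells, had 13.29, 5.62, 8.63 and 11.33, and App 14.00, 7.55, 13.71 and 13.38. Cdh5, Cd44 and Notch2 had 11.31, 15.57 and 10.01 in Trem2 and 6.36, 12.11 and 7.15 in CD74.

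Of the less abundant members, Tspan4, which takes part in forming migrasomes (vesicles left on the tracks of migrating cells), was the only tetraspanin at least 2-fold higher in Ccrl2 than in each other library. It had 7.13 (Ccrl2), 4.81 (CD74), 5.70 (CD163) and 5.83 (Trem2), a 2.46-fold excess over Trem2, and was under the ceiling in CD74 and CD163. Against those ceilings the excess was at least 1.52-fold and 1.80-fold, short of 2-fold. Quantile normalization left it at 6.87 in Ccrl2 and at most 5.80 elsewhere.

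Tspan9, a platelet tetraspanin, had 6.53 (Ccrl2), 4.79 (CD74), 5.69 (CD163) and 6.51 (Trem2), and the Ccrl2 value equalled the CD74 ceiling. Pf4, a platelet gene, had 9.86, 5.71, 10.36 and 10.58 in the same order, Itga2b had 6.58, 5.89, 6.07 and 6.33, and Ppbp and Gp9 were under the ceiling in every library. Tspan12, a coreceptor of Norrin signalling in endothelium, had 5.75, 5.06, 5.36 and 5.80, barely over the ceilings of Ccrl2 and Trem2. The endothelial marker Cdh5 had 10.86, 6.36, 7.47 and 11.31, Kdr 9.20, 5.44, 6.59 and 9.03, and Fabp4 14.88, 11.27, 12.32 and 17.09. Endothelial and platelet RNA was not tested as a part of these values.

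Tspan32, a tetraspanin of blood cells, had 6.45 in CD163, just over the ceiling of 6.28, and was under the ceiling in Ccrl2 (5.45), CD74 (5.94) and Trem2 (5.11). The CD163 value was at least 1.93-fold above Trem2. It lay below the CD74 ceiling of 6.53, so CD163 and CD74 have no order for this gene. Tspan2 had 6.17 in Trem2 and 5.92, 5.54 and 5.11 in CD74, Ccrl2 and CD163, all under their ceilings. The 4 family members that the naming rule leaves out, the uroplakins Upk1a and Upk1b and the photoreceptor genes Prph2 and Rom1, were under the ceiling in every library.

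The members were then counted by pair of libraries, beside all genes measured in the pair. The members and the genes of each count had passed the background ceiling in at least 1 library of the pair, so the choice favours members that differ, and pairs that share a library are not independent. Differences were taken from the deposited values, also where the dimmer one lay under its ceiling. Against CD74, Ccrl2 was at least 2-fold higher for 13 of 15 members (48.8% of all genes measured in the pair were) and lower for 0 (9.01%). The members' median difference was 1.95 log2 units beside 0.96. Cd82 lay on the threshold at 1.00, and the members outside the counts, Cd53 and Tspan12, had differences of -0.55 and 0.69. After quantile normalization the higher members numbered 9, beside 33.2% of all genes, and Cd9, Cd37, Cd82 and Tspan13 had left the count. With values under a ceiling set to it they numbered 9 as well, beside 32.0%, and the members that left were Cd151, Tspan4, Tspan9 and Tspan17.

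CD74 was at least 2-fold lower than Trem2 for 12 of 16 members (50.3% of all genes) and higher for 0 (7.59%), with a median difference of -2.52 beside -1.01. The 4 outside these counts were Cd53, Tspan2, Tspan5 and Tspan12. With values under a ceiling set to it, 8 were lower (32.6% of all genes), without Cd151, Tspan3, Tspan4 and Tspan9. Against CD163, CD74 was lower for 6 of 12 members (34.1%), namely Cd63, Cd81, Cd151, Tspan3, Tspan14 and Tspan31, and higher for 3 (17.5%), Cd53, Cd82 and Tspan13. The median was -0.98 beside -0.47. Values under a ceiling set to it left 4 lower than CD163 (19.3% of all genes), without Cd63 and Cd151. Quantile normalization left 7 members lower than Trem2 (32.6% of all genes) and 5 lower than CD163 (33.7%).

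Ccrl2 was at least 2-fold higher than CD163 for 6 of 16 members (38.5% of all genes), Cd9, Cd37, Cd82, Tspan4, Tspan13 and Tspan31, and lower for 1 (7.65%), Tspan32, which lay on the threshold. That share was near the background and the median difference, 0.80 beside 0.69, was too. Values under a ceiling set to it left 5 higher (28.1% of all genes), without Tspan4, and 0 lower (5.03%). CD163 was lower than Trem2 for 8 of 17 (38.6%), Cd9, Cd37, Cd82, Tspan2, Tspan5, Tspan13, Tspan14 and Tspan31, and higher for 1 (7.61%), Tspan32, with a median of -0.97 beside -0.69. With values under a ceiling set to it, 6 were lower (27.5% of all genes), without Tspan2 and Tspan5, and 0 higher (6.05%). Ccrl2 and Trem2 were closest, with Ccrl2 higher for 2 of 17 (7.77%), Tspan4 and Tspan17, and lower for 3 (11.5%), Cd82, Tspan5 and Tspan13. The median there was -0.06 beside -0.08.

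**Figure D3:**
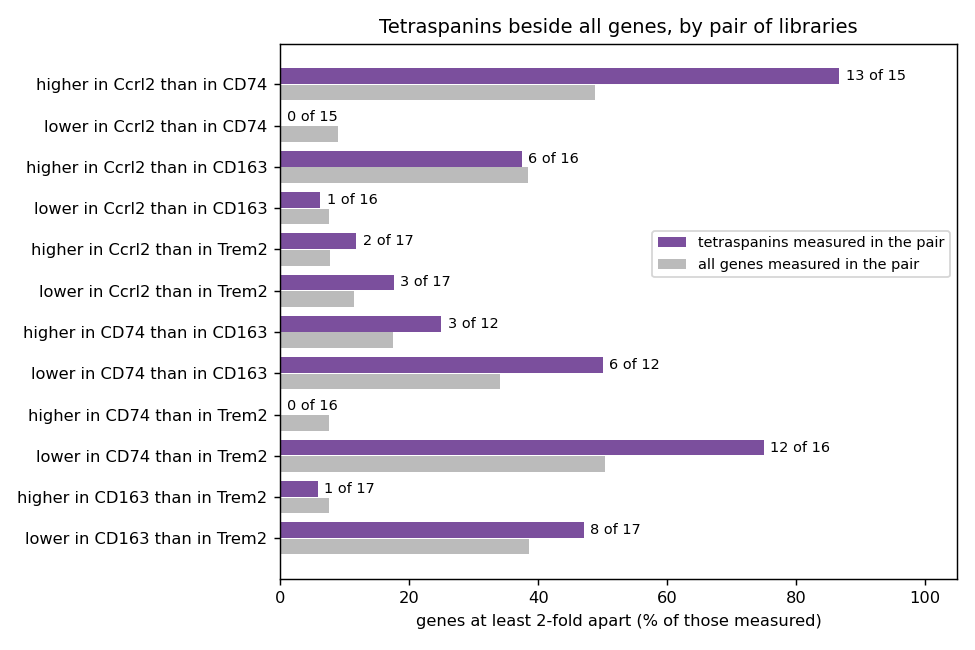
Share of genes at least 2-fold higher or lower between 2 libraries (horizontal axis, percent of genes measured in the pair) for tetraspanins in purple, with their counts, and for all genes in grey. The purple bar is longest for Ccrl2 over CD74 at 13 of 15 and for CD74 under Trem2 at 12 of 16, where the grey bars are also longest at 48.8% and 50.3%.

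Set against each of the other 3 libraries at once, CD74 was lower for 6 members (15.5% of the 9362 genes measured in any library), the same 6 named against CD163, and higher for 0 (4.41%). Of those 6, Cd81 and Tspan31 were above the CD74 ceiling. Trem2 was higher for 2 (5.65%), Cd82 and Tspan13, and lower for 0 (0.214%). CD163 was lower for the same 2 (4.71%) and higher for 0 (2.82%). Ccrl2 was higher for 1 (3.64%), Tspan4, and lower for 0 (0.171%).

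**Figure D4:**
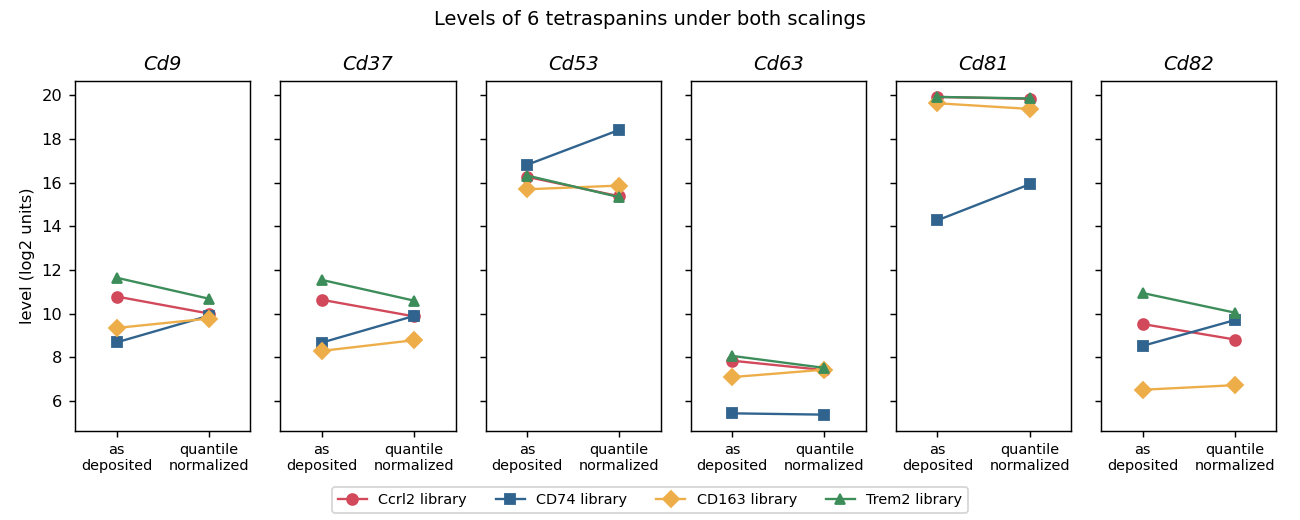
Log2 level (vertical axis) of 6 tetraspanins in each library as deposited and after quantile normalization, with 1 line for each library. The 4 lines of Cd9 close to a range of 0.91, those of Cd53 open from 1.12 to 3.09 with CD74 on top, and the CD74 line stays lowest for Cd63 and Cd81.

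Genes whose proteins are known to associate with tetraspanins were compared in the same way, from a list of 19. Of these, 17 were on the array and 14 above background in at least 1 library, beside 9362 of all 19505 genes. The shared integrin chain Itgb1 had 14.65 (Ccrl2), 12.16 (CD74), 13.09 (CD163) and 13.86 (Trem2). Itga4, its partner chain on leukocytes, had 10.91, 12.72, 9.51 and 13.02, so that CD74 was higher than Ccrl2 as for Cd53. Itga6, a chain of laminin receptors, had 9.22 and 9.68 in Ccrl2 and Trem2 and was under the ceiling in CD74 and CD163. The direct CD9 and CD81 partner Igsf8 had 6.57, 7.27, 5.05 and 6.08, with CD74 highest, and the related Ptgfrn was above background in Ccrl2 alone, at 6.26.

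Among the receptors and adhesion molecules of that list, Cd36, a scavenger receptor, had 12.32 (Ccrl2), 5.69 (CD74), 10.15 (CD163) and 12.56 (Trem2). Vcam1 had 11.61, 6.43, 7.70 and 9.83, and the protease gene Adam17 11.05, 5.33, 9.40 and 9.93. Ccrl2 was at least 2-fold higher than CD74 for 10 of 12 partners (48.8% of all genes) and lower for 1 (9.01%), with a median of 2.72 beside 0.96, which quantile normalization brought to 1.33 beside 0.36. Against Trem2 it was higher for 4 of 14 (7.77%) and lower for 2 (11.5%), with a median of 0.50 beside -0.08.

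Genes of vesicle formation and late endosomes made up the last list. In at least 1 library 11 of 13 were above background, beside 9362 of all 19505 genes. Sdcbp, which encodes the adaptor syntenin, had 18.83 (Ccrl2), 12.04 (CD74), 16.97 (CD163) and 17.30 (Trem2). The lysosomal membrane genes Lamp1 and Lamp2 had 15.77 and 17.20 in Ccrl2 and 10.07 and 11.92 in CD74, and Tsg101, Vps4b and Pdcd6ip of the ESCRT machinery had 9.92, 9.0 and 10.82 against 7.09, 7.46 and 8.50. Of 11 measured, 8 were at least 2-fold higher in Ccrl2 than in CD74 (48.8% of all genes) and 1, Rab27a, was lower (9.01%). The median was 1.83 beside 0.96, and 1.19 beside 0.36 after quantile normalization. Between Ccrl2 and Trem2, 1 was higher (Sdcbp, 7.77% of all genes) and 0 lower (11.5%).

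Some tetraspanin genes lie next to each other in the genome, with no other protein-coding gene between them in the GRCm38.p6 gene table. This held for Tspan32 and Cd81, for Tspan18 and Cd82 and for Tspan11 and Tspan9, while Cd151 and Tspan4 had 1 gene between them. The neighbours differed in whether they passed background. Cd81 was at the top of the scale in Ccrl2 and Trem2 and far above background in the other two, while Tspan32 passed in CD163 alone, and Tspan18 and Tspan11 were under every ceiling beside Cd82 and Tspan9. Cd151 and Tspan4 were both highest in Ccrl2 and lowest in CD74. So were Tspan9, Tspan17 and Tspan31, so this order was not particular to the pair. For Cd151, Ccrl2 lay only 0.27 log2 units above Trem2, and 0.01 above CD163 after quantile normalization.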

How the data were processed

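Total RNA was amplified, biotin-labelled and hybridised to Clariom S mouse arrays, 1 for each of 4 libraries, and the authors summarised the intensities per probe set by robust multichip average, per the labels' protocols. Affymetrix Expression Console is named in the submitters' processing notes. The deposited values are log2 expression, as read from their range. No setting of the averaging or annotation build was given in the sources used here. Of 28846 probe sets, 6640 were controls and 19572 had 1 gene symbol. For the 55 genes with several, the probe set with the highest mean was used, which left 19505 genes. Values within 0.015 of 19.93 were taken as saturated. Quantile normalization used the 22206 gene probe sets. Every member is named, and of each other list the few with the largest range or highest value. The members, the lists and the motifs were chosen with earlier results of these data known. The protein table needed to show protein sequences was not used here. The counting code was run on simulated data, which checks the counting and not the differences between these arrays. Precision is limited by the number of arrays. Work was done in Python 3.11.15 with numpy 2.4.6 and pandas 2.3.3. Alternatives were 2 scalings, 2 filters, values set to the ceiling, the mean over probe sets and, after seeing the data, leaving out CD74.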

Additional observations from a re-analysis of the deposited data

How the results depend on the processing

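With 1 array for each population, no difference has an error, and low values rest on a background ceiling that differed between arrays. No paired analysis was possible because each group has 1 sample and no result comes from a test. The 20 counts of tetraspanins were recomputed under 6 alternatives. A count was called moved when it changed by more than a set ratio, or to or from 0. Smaller changes were not, as when the members higher in Ccrl2 than in CD74 went from 13 to 9 under quantile normalization. The share of all genes went from 48.8% to 33.2% there. Each percentage below is the share of all genes under the same setting. The counts not called moved are therefore not all unchanged. The mean over probe sets moved 0 counts, but each member has 1 probe set, so this setting could not change a member's values. Quantile normalization moved 7 of the 20 counts. Cd53 became at least 2-fold higher in CD74 than in each other library (1, from 0, beside 10.7%). It also became higher in CD74 than in Ccrl2 (1, from 0, beside 20.3%) and than in Trem2 (1, from 0, beside 18.0%). The members higher in Trem2 than in each other library became 1 (from 2, beside 2.02%). Those lower in CD74 than in Trem2 became 7 (from 12, beside 32.6%). Against Trem2, CD163 had 2 higher (from 1, beside 15.6%) and 5 lower (from 8, beside 22.7%). Median centring moved 5. It gave 1 for each of the Cd53 counts, beside 6.54% (each other library), 13.7% (Ccrl2) and 12.3% (Trem2). CD163 had 2 higher (12.8%) and 5 lower (23.4%) than Trem2. With values under a ceiling set to it, 4 moved. They became 0 higher in Ccrl2 than in each other library (from 1, beside 2.61%) and 3 lower in CD74 than in each (from 6, beside 10.2%). The others became 0 lower in Ccrl2 than in CD163 (from 1, beside 5.03%) and 0 higher in CD163 than in Trem2 (from 1, beside 6.05%). Without a filter, and with each library's median as the filter, 1 moved, as Tspan6 was counted lower in Ccrl2 than in CD74 (1, from 0). The shares of all genes were 13.1% without a filter and 17.5% with the median filter. Leaving out CD74 was chosen after seeing the data. It gave 1 member higher in CD163 than in each other library (from 0, beside 4.8%) and 5 lower (from 2, beside 24.7%).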
